A study of Mus musculus with 6 samples.

Results

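The circadian clock genes Arntl, Clock, Npas2, Per1, Per2, Per3, Nr1d1, Nr1d2, Dbp and Tef were examined in the cochleae of *Cmah*-null mice and their WT counterparts by taking each array probe whose gene symbol is one of these names. All 10 genes were found, among 18138 gene symbols, and they had 17 of the 25697 probes. There were 3 WT and 3 *Cmah*-null samples, each 12 months of age and of strain C57BL/6 in the labels, C57BL/6J in the study's methods, with no treatment named for either genotype. The *Cmah*-null mice carried the Cmah tm1Ykoz knockout allele, so the hydroxylase that makes the sialic acid Neu5Gc is missing in every tissue. The hour at which tissue was taken, the light cycle and the sex of the mice are not given in the sources used here. Total RNA of each sample was hybridized to 1 Illumina MouseRef-8 v2 array, and the labels do not say that each sample is a separate animal, so p-values measure only the spread between these samples.

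The clock is a transcription loop that runs in nearly every mammalian cell, the cochlea included, where hearing sensitivity to noise varies with the time of day. Arntl (BMAL1) pairs with Clock or its relative Npas2 and switches on genes that carry an E-box, among them the Per genes, the Nr1d (REV-ERB) genes, Dbp and Tef. The PER proteins then block Arntl and Clock, the REV-ERB proteins silence Arntl through ROR elements, and Dbp and Tef act on D-boxes. As a result Arntl RNA peaks when Dbp, Nr1d1 and Per RNA are low, and the relation of Arntl to these genes is commonly read as the phase of the clock. Per1 and Per2 are also induced by outside signals, such as glucocorticoids and the cAMP pathway.

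These elements can be seen in the promoters of some of the genes, and the ones printed here are the promoters with an E-box or D-box among the clock genes measured, with Ciart, a repressor of the same loop, added because both of its probes were higher in *Cmah*-null mice (values further on). Each is the 250 bases before a start site in RefSeq on GRCm38.p6, read 5′ to 3′ on the gene's strand. Of the 10 genes, 9 had an entry. Per2 had none, so its promoter was not searched. The letters searched on both strands were the E-box CACGTG, the D-box TTATGTAA or TTACGTAA, the ROR element core AGGTCA and the cAMP element TGACGTCA, and matches are in capitals. No matches of different motifs overlapped.
Per1, chr11:69098699-69098948, + strand: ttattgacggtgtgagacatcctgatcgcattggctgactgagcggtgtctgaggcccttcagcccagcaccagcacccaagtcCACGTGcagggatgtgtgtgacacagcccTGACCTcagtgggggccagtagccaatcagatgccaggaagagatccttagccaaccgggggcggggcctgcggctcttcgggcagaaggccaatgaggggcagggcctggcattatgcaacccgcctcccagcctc
Per3, chr4:151044666-151044915, - strand: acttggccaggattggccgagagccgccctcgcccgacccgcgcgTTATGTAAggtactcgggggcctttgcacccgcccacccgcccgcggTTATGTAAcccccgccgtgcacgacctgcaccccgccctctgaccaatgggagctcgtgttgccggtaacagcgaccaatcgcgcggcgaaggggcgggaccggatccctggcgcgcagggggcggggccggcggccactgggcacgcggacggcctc
Tef, chr15:81802423-81802672, + strand: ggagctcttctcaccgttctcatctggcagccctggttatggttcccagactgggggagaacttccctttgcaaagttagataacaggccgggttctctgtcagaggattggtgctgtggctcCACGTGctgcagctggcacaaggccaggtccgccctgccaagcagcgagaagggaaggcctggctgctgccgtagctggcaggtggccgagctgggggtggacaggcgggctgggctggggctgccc
Tef, chr15:81811164-81811413, + strand: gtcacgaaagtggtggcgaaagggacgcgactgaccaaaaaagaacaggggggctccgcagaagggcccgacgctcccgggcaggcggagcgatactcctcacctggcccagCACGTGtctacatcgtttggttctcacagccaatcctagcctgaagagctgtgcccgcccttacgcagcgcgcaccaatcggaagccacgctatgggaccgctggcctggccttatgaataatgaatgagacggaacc
Ciart, chr3:95882229-95882478, - strand: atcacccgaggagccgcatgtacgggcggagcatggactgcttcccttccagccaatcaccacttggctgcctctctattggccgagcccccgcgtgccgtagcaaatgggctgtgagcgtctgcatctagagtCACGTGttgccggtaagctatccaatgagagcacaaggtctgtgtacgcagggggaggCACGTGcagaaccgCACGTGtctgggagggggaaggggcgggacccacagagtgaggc
The Per1 promoter held an E-box that began 166 bases before the start site and a ROR element core at 137 bases. Per3 held 2 D-boxes, at 205 and 158 bases, and the Tef promoters held an E-box each, at 127 and 138 bases. Ciart held 3 E-boxes, at 116, 58 and 44 bases. Among 32851 promoters of this length, 6.02% held the E-box, 0.931% the D-box, 14.0% the ROR element core and 1.55% the cAMP element. Nr1d2 and 1 promoter of Clock held the ROR element core only, and these letters were not in the window of Arntl, Dbp, Nr1d1, Npas2 or a second promoter of Per1. Among other genes described further on and searched, Usp2 and Fos held no match, Fkbp5 held an E-box at 169 bases and Bhlhe40 had no entry. A match is a description of the sequence and not a bound site.

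Values are log2 signals, quantile-normalized by the authors, on which a difference of 1 is a 2-fold difference. A probe was detected on an array when its detection p, which the scanner's software computed against negative controls, was under 0.05. Each array detected between 13873 and 15223 probes. The probe of *Cmah* was detected on 1 WT and 2 *Cmah*-null arrays, at 7.47 ± 0.34 and 7.73 ± 0.40 (SD, n = 3), and so gave no check of genotype. *Cmah*-null replicates 1 and 2 were the closest arrays, with a median absolute log2 difference of 0.083 over the 12410 probes detected on all 6 arrays, against 0.16 to 0.53 for the other 14 pairs. WT replicate 1 and these 2 arrays also had fewer beads per probe, 32 to 34 in the median, against 38 or 39. Comparisons within a bead set thus rest on WT replicate 1 alone for fewer beads and on *Cmah*-null replicate 3 alone for more. The deposited columns call the second group "old" and were matched to the *Cmah*-null samples by their numbers, with WT columns named as such.

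Of the clock gene probes, 11 from 9 genes were detected on all 6 arrays, 4 on some and 2 on none. Npas2 was the gene with no such probe. The signals of probes with different sequences are not on a common scale, so each probe was compared only with itself across arrays. These are bulk samples, in which fewer cells of a type and less RNA per cell cannot be told apart.

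Per2 showed the largest difference between genotypes among the clock genes. Both of its detected probes lay higher on each *Cmah*-null array than on any WT array, Per1 was higher on 1 of its probes, and Per3 was not higher. None of the 17 probes passed an adjusted p under 0.05 in limma, where 0 of all 25697 probes did (0%) and 2199 were under 0.05 before adjustment. By a looser rule, a change of at least 1.5-fold and an unadjusted p below 0.05, 3 clock gene probes of 2 genes were higher, beside 1.3% of all probes, and 0 were lower, beside 1.41%. The *Cmah*-null arrays lay wholly above WT for 3 of the 17 probes, against 9.11% of all probes, and wholly below for 2, against 7.33%.

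Per2 encodes a repressor of the Arntl and Clock pair. The probe ILMN_2987862, which begins at base 5631 of its transcript, read 10.86, 10.68 and 11.13 in WT and 11.96, 11.96 and 12.45 in *Cmah*-null samples. The neighbouring probe ILMN_2987863, at base 5533, read 10.57, 10.25 and 10.60 in WT and 11.53, 11.49 and 11.95 in *Cmah*-null samples. On both probes the groups were apart, by 0.82 and 0.90 between the highest WT and the lowest *Cmah*-null array. The difference was 1.23 (SE 0.19) on the first, a 2.35-fold change, and 1.19 (SE 0.17) on the second, with an adjusted p of 0.365 for both in limma and unadjusted p of 6.4e-04 and 4.3e-04. It was present among the arrays with fewer beads (1 WT and 2 *Cmah*-null), at 1.09 and 0.94. Among those with more (2 WT and 1 *Cmah*-null) it was 1.54 and 1.53. The 2 probes lie on the same transcript and are not independent measurements. The other Per2 probe, ILMN_1258523, was detected on no array and gives no fold.

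Per1 encodes a second PER repressor and responds quickly to outside signals. The probe ILMN_2813484 read 10.50, 10.91 and 11.39 in WT and 11.04, 11.24 and 12.40 in *Cmah*-null samples, and the groups overlapped. The probe ILMN_2813487 read 9.25, 9.50 and 9.67 in WT and 9.84, 9.97 and 10.87 in *Cmah*-null samples, without overlap. Both were highest in *Cmah*-null replicate 3. The difference was 0.63 (SE 0.42, adjusted p = 0.715 in limma) on the first probe and 0.75 (SE 0.29, adjusted p = 0.579, unadjusted 0.0444) on the second. Without *Cmah*-null replicate 3 they were 0.21 and 0.43. Without WT replicate 1, 2 or 3, and without *Cmah*-null replicate 2, the unadjusted p of the second probe was 0.125, 0.0952, 0.0621 and 0.050. It was 0.0280 without *Cmah*-null replicate 1 and 0.0266 without replicate 3, where the difference of 0.43 is under 1.5-fold. With a block for the replicate number the first probe passed the 1.5-fold rule too (unadjusted p 0.0214), and with a block for the bead set it differed by 0.95 (unadjusted p 0.00618).

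Per3, the third period gene, went the other way. Its probe read 8.31, 8.29 and 7.80 in WT and 7.79, 8.02 and 7.89 in *Cmah*-null samples, and the groups overlapped. The difference of -0.24 (SE 0.16, adjusted p = 0.718 in limma) was smaller than the spread between the WT arrays. It was -0.40 without WT replicate 3 (unadjusted p 0.0120), -0.15 and -0.16 without WT replicate 1 or 2, and -0.46 with neqc, a normalization that subtracts background.

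**Figure D1:**
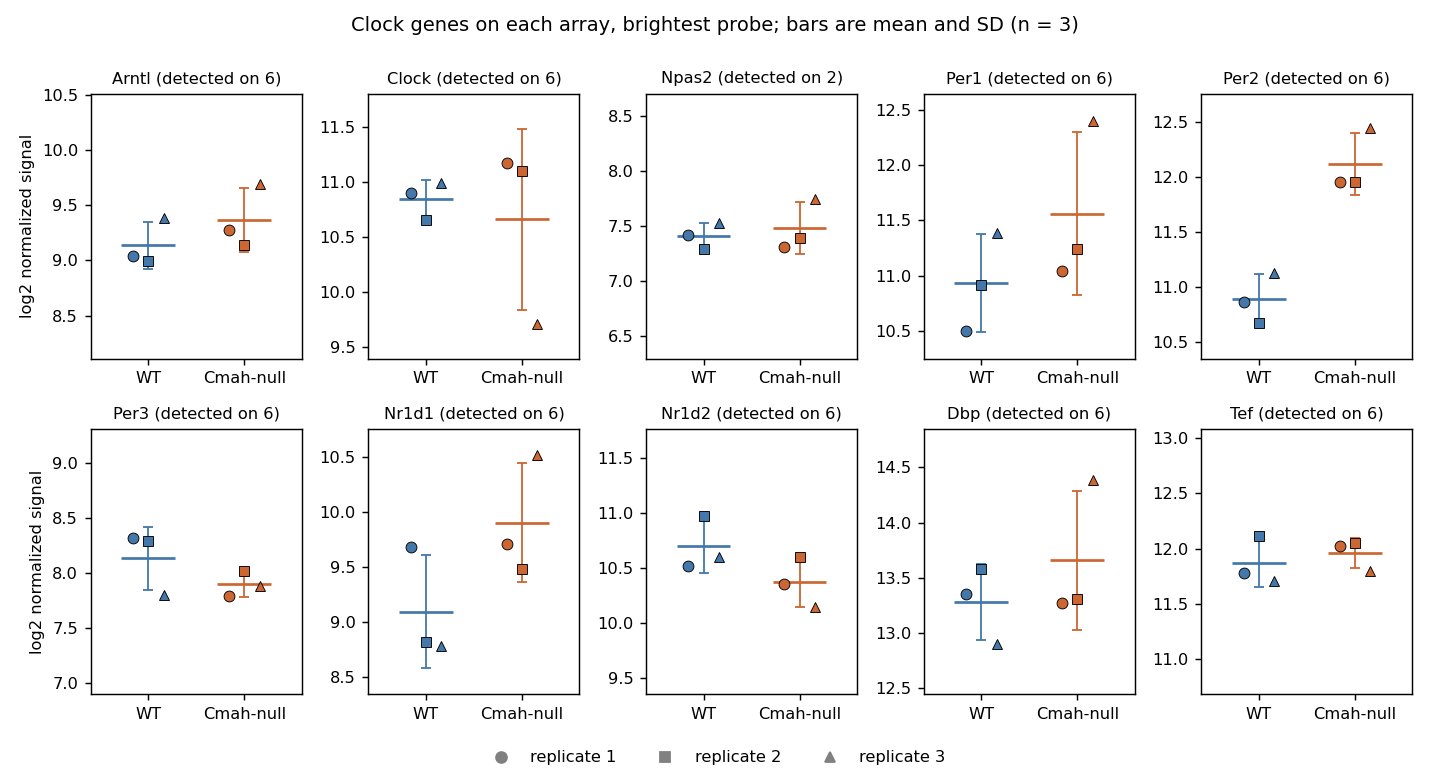
log2 normalized signal (vertical axis, panels start at different values and span the same number of log2 units) of the brightest probe of each of the 10 clock genes on 3 WT and 3 *Cmah*-null arrays; points are arrays, lines and bars are the mean and SD. The *Cmah*-null points lie above all WT points for Per2, and *Cmah*-null replicate 3 is the highest array for Arntl, Per1, Per2, Nr1d1 and Dbp.

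Nr1d1 and Nr1d2 encode the REV-ERB receptors that repress Arntl. Nr1d1 read 9.68, 8.82 and 8.78 in WT and 9.70, 9.48 and 10.51 in *Cmah*-null samples. WT replicate 1 lay at the level of *Cmah*-null replicates 1 and 2, so the groups overlapped. The difference was 0.81 (SE 0.36, adjusted p = 0.614 in limma), and 0.50 without *Cmah*-null replicate 3. It was -0.088 among the arrays with fewer beads and 1.71 among those with more. Nr1d2 read 10.52, 10.97 and 10.60 in WT and 10.36, 10.61 and 10.15 in *Cmah*-null samples on its brighter probe, ILMN_2798993. The groups overlapped, with a difference of -0.33 (SE 0.17, adjusted p = 0.653 in limma) that became 0.12 when arrays were scaled to a common median in place of the quantile step. Its other probe, ILMN_2602387, was detected on 2 WT and 1 *Cmah*-null arrays and differed by 0.0070. The 2 receptors thus had opposite signs on the quantile-normalized scale, a difference between genes that was not tested.

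Dbp and Tef encode PAR bZIP factors that carry the rhythm from the clock to its output genes. Dbp read 13.35, 13.57 and 12.90 in WT and 13.27, 13.31 and 14.39 in *Cmah*-null samples. *Cmah*-null replicate 3 stood above all other arrays, and the other 2 *Cmah*-null arrays lay between WT values. The difference of 0.38 (SE 0.35, adjusted p = 0.786 in limma) was 0.013 without that array. It was -0.064 among the arrays with fewer beads and 1.15 among those with more. Tef had 2 probes, on different transcripts. ILMN_2676052 read 11.78, 12.11 and 11.71 in WT and 12.02, 12.05 and 11.80 in *Cmah*-null samples, a difference of 0.092 (SE 0.14) with overlapping groups. ILMN_2715400, which begins at base 19 of its transcript, read 7.86, 8.07 and 7.78 in WT and 7.52, 7.59 and 7.38 in *Cmah*-null samples, and was detected on 3 WT arrays and 1 *Cmah*-null array. Here all *Cmah*-null arrays were lower, by -0.41 (SE 0.11, adjusted p = 0.458 in limma, unadjusted 0.0101), which is less than 1.5-fold. With neqc this dim probe differed by -1.04.

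The genotypes overlapped on every probe of the activators. Arntl read 9.04, 8.99 and 9.38 in WT and 9.27, 9.14 and 9.70 in *Cmah*-null samples, with overlap and a difference of 0.23 (SE 0.18, adjusted p = 0.751 in limma). Without *Cmah*-null replicate 3 it was 0.069. With median scaling it was 0.53 (unadjusted p 0.0121, adjusted 0.183 in limma), where the median over all detected probes was 0.30. Clock read 10.90, 10.66 and 10.99 in WT and 11.17, 11.10 and 9.71 in *Cmah*-null samples on ILMN_2610973. Here *Cmah*-null replicate 3 was the lowest array and the other *Cmah*-null arrays were the highest. The difference was -0.19 (SE 0.41, adjusted p = 0.917 in limma), turned to 0.29 without *Cmah*-null replicate 3 and to 0.27 with median scaling, and was 0.23 among the arrays with fewer beads and -1.11 among those with more. A dimmer Clock probe, ILMN_2600964, was detected on 4 arrays and was likewise lowest in *Cmah*-null replicate 3, at 7.24 against 7.40 to 8.14. The third, ILMN_2589603, was detected on none. Npas2 was detected on 1 array of each genotype, with values from 7.29 to 7.75.

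**Figure D2:**
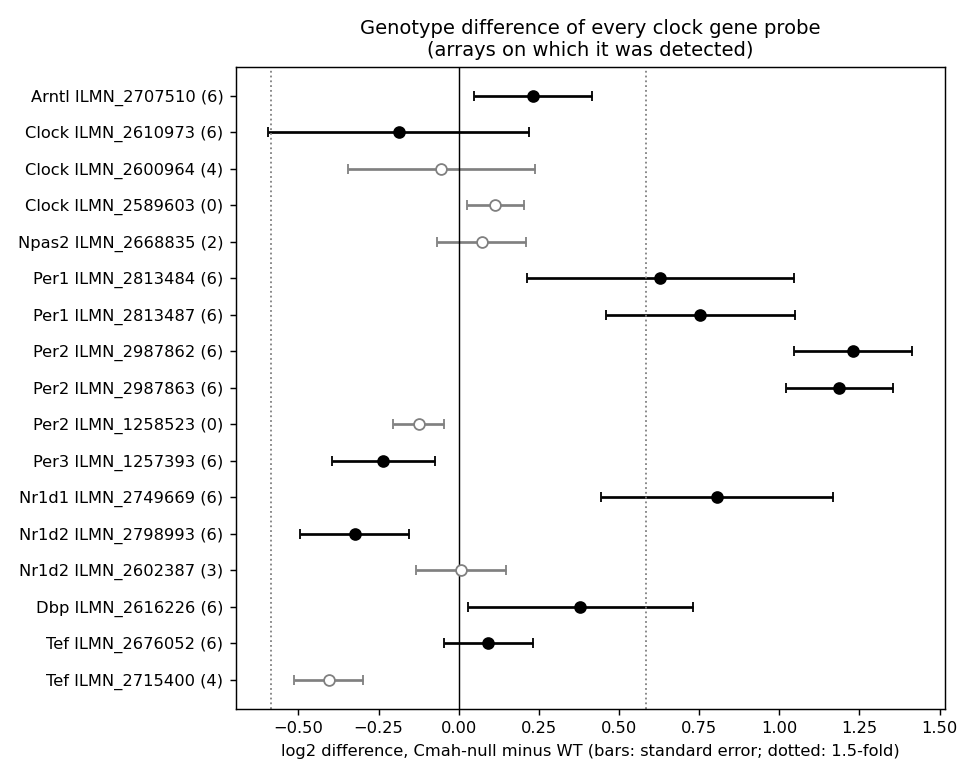
Difference of log2 signal, *Cmah*-null minus WT (horizontal axis), of each of the 17 clock gene probes with its standard error as the bar; open points mark probes not detected on all 6 arrays, the number in brackets is the arrays on which the probe was detected, and dotted lines mark 1.5-fold. Both detected Per2 probes lie past 1 and those of Per1 and Nr1d1 past the line for 1.5-fold, while the probe of Per3, the brighter probe of Nr1d2, the dimmer probe of Tef, 2 probes of Clock and the undetected probe of Per2 lie below 0.

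Many of the clock gene probes varied over the arrays. Of the 11 probes detected on all 6 arrays, 7 from 5 genes (Clock, Per1, Per2, Nr1d1 and Dbp) had a range of at least 1 between the highest and the lowest array, against 38.5% of the 12410 detected probes. Their median range was 1.49, against 0.84 over all detected probes. *Cmah*-null replicate 3 was the highest array for 7 of the 11, against 36.6% of all detected probes, and the lowest for 2 (Clock and Nr1d2). The error between beads of these probes was 0.027 to 0.15, and the closest pair, *Cmah*-null replicates 1 and 2, differed by 0.25 at most. Between genotypes the median difference of the 11 probes was 0.38, against 0.026 over all detected probes, and the median over the brightest probe of each of the 10 genes was 0.16. These counts and medians describe a list chosen with earlier results of the arrays known and carry no test.

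Whether the arrays differed in clock phase was asked by setting Arntl against the genes that run in the opposite phase. For each array the mean log2 signal of Dbp, Per1, Per2, Per3, Nr1d1, Nr1d2 and Tef (brightest probes, all 7 detected on all 6 arrays) was subtracted from that of Arntl. Because probes are not on a common scale, only the change of this contrast from array to array can be read. It was -1.68, -1.77 and -1.23 in WT and -1.60, -1.81 and -1.67 in *Cmah*-null samples. The groups overlapped, with means of -1.56 ± 0.29 and -1.70 ± 0.11 (SD, n = 3) and a difference of -0.14. The whole range was 0.58, and the array farthest from the others was WT replicate 3. Arntl minus Dbp alone read -4.32, -4.58 and -3.52 in WT and -4.00, -4.17 and -4.69 in *Cmah*-null samples, a difference of -0.15 over a range of 1.17, again with overlap.

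The genes did not move as opposite sides of the loop throughout. On *Cmah*-null replicate 3, Arntl was at its highest, 0.44 above its own mean over the arrays, and so were Dbp (0.92 above), Per1 (1.16), Per2 (0.94) and Nr1d1 (1.01). The other 3 of the 7 genes lay below their means there, Nr1d2 at -0.38, Per3 at -0.13 and Tef at -0.11. WT replicate 3 had the lowest Dbp and Nr1d1 together with the second-highest Arntl, and WT replicate 2 the lowest Arntl together with the second-highest Dbp. On these arrays Dbp moved opposite to Arntl. On WT replicate 2 Per2 was at its lowest and Nr1d1 at its second-lowest, both on the same side as Arntl. Counted over the 6 arrays and the 7 genes, a gene lay on the other side of its own mean than Arntl in 22 of 42 cases. This went from 2 of 7 on WT replicate 1 to 5 of 7 on WT replicate 3. Some of these sides rest on values near 0. On *Cmah*-null replicate 1 Arntl was 0.021 above its mean, and its error between beads was 0.049 to 0.097 over the arrays. Other genes were not counted in this way, so the count describes these values and is not a result about the loop. Arntl and Per2 were both higher in *Cmah*-null means. With no collection time given, genotype and hour of collection cannot be told apart.

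**Figure D3:**
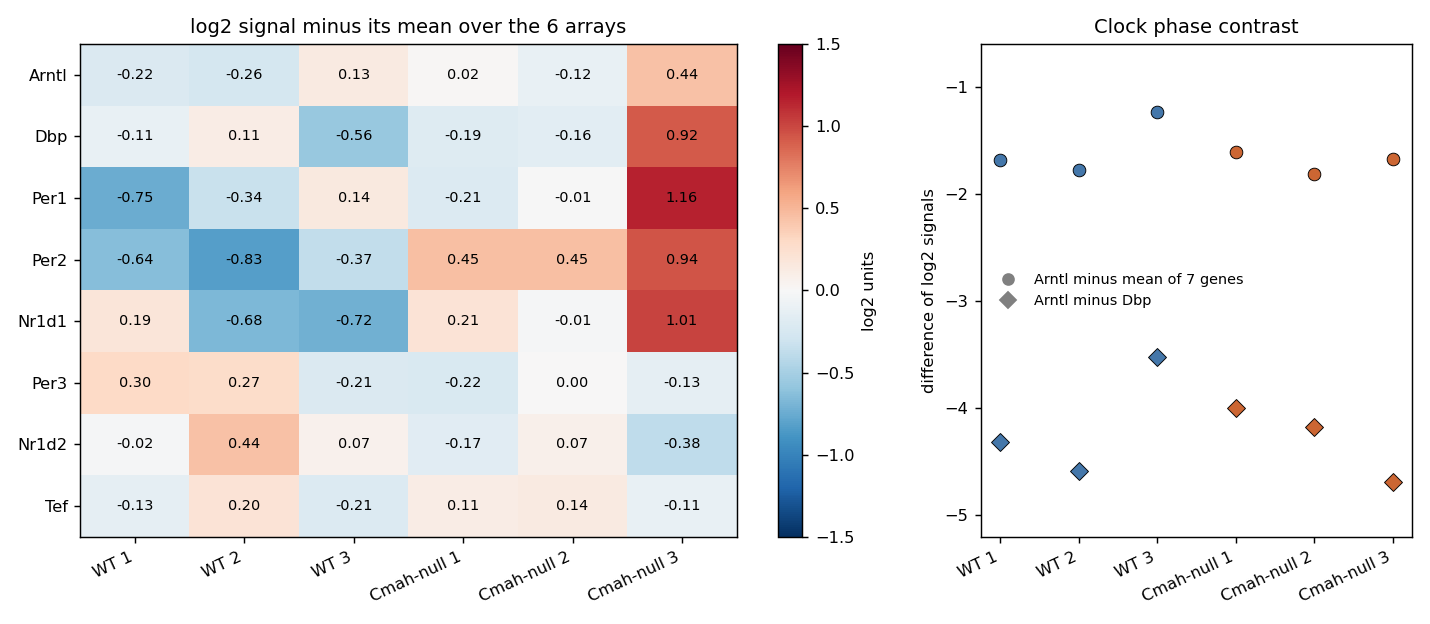
Left, log2 signal of Arntl and the 7 genes set against it, minus each gene's mean over the 6 arrays (columns are arrays, colour and printed number are log2 units). Right, Arntl minus the mean of the 7 genes (circles) and Arntl minus Dbp (diamonds) on each array. The *Cmah*-null replicate 3 column is positive for Arntl, Dbp, Per1, Per2 and Nr1d1 alike and negative for Per3, Nr1d2 and Tef. The contrast of the genotypes overlaps.

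Other genes of the clock pathway gave a mixed picture. Those analysed here were 23 genes with 39 probes. There were 22 probes of 15 genes detected on all 6 arrays, and the brightest probe of Cry1, Bhlhe41, Arntl2, Fbxl21 and Fbxw11 was detected on none. None passed an adjusted p under 0.05 (smallest 0.399 in limma) and 7 had an unadjusted p under 0.05. By the 1.5-fold rule, 4 probes of 3 genes were higher and 3 probes of 3 genes lower, beside the 1.3% and 1.41% of all probes. Without WT replicate 3 these counts were 2 and 0, where 2.00% and 2.04% of all probes were called, and with median scaling 8 and 0, where 9.37% and 0.307% of all probes were called. The *Cmah*-null arrays lay wholly above WT for 6 of the 39 probes, beside 9.11% of all probes, and wholly below for 3, beside 7.33%.

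Ciart (CHRONO), which represses E-box genes, was higher on both probes. ILMN_3029489 read 9.71, 9.37 and 9.27 in WT and 10.26, 10.12 and 10.75 in *Cmah*-null samples, a difference of 0.93 (SE 0.20, adjusted p = 0.399 in limma), and the second probe differed by 0.81 (SE 0.18). As for Per2, no *Cmah*-null array lay within the WT values. Usp2 is a ubiquitin protease whose RNA follows the clock in many tissues. On ILMN_1240264 it read 12.05, 11.94 and 11.64 in WT and 12.27, 12.37 and 13.29 in *Cmah*-null samples. The difference was 0.77 (SE 0.29, adjusted p = 0.574 in limma). Its probe ILMN_2466316, detected on 4 arrays, differed by 0.094 (SE 0.16) with overlap, and ILMN_2482390 was detected on none. Btrc, a ubiquitin ligase subunit that targets PER proteins, differed by 0.63 (SE 0.15) on ILMN_3100042 and by 0.17 (SE 0.16) on its other probe detected on all arrays, so its probes disagree on the size.

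The 3 lower genes were Rora, an activator of Arntl, Nampt, an enzyme of NAD synthesis under clock control, and Ppargc1a, a coactivator of the ROR receptors. Rora read 11.21, 11.22 and 11.36 in WT and 10.61, 10.93 and 9.97 in *Cmah*-null samples, a difference of -0.76 (SE 0.24, adjusted p = 0.529 in limma). Nampt differed by -0.81 (SE 0.27) on its brighter probe, ILMN_2821850. Its other probe, ILMN_1232209, was detected on 4 arrays and differed by -0.29 (SE 0.20) with overlap. Ppargc1a differed by -0.65 (SE 0.26). These 3 calls were lost when each probe was tested on its own spread alone, with median scaling and without WT replicate 2 or WT replicate 3. In these settings 0 of the pathway's probes were lower, beside 0.307% to 2.04% of all probes. Rora and Ppargc1a were lowest in *Cmah*-null replicate 3, the array in which Clock was lowest. The brighter Nampt probe was lowest in *Cmah*-null replicate 2. Brown fat markers also had lower means in *Cmah*-null samples. All 4 such genes were found. The log2 of the summed linear signals of their brightest probes was 15.05 to 15.75 in WT and 12.70 to 14.30 in *Cmah*-null samples. By the 1.5-fold rule 3 of them (Ucp1, Cidea and Cox8b) were lower, beside 1.41% of all probes. The part of brown fat in the Ppargc1a and Rora values was not tested.

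Cry2, a partner of the PER repressors, read 9.12, 9.33 and 9.39 in WT and 9.25, 9.32 and 9.49 in *Cmah*-null samples, a difference of 0.072 (SE 0.11). Bhlhe40 (DEC1), another E-box repressor, read 11.70, 11.79 and 11.61 in WT and 11.86, 11.77 and 13.01 in *Cmah*-null samples. Only *Cmah*-null replicate 3 was high, and the difference was 0.51 (SE 0.34). Of the kinases of the PER proteins, Csnk1e was highest on that array too, with 12.11 against 10.88 to 11.35 on ILMN_2712792. Csnk1d read 11.16 there against 10.33 to 10.69 on its brightest probe, ILMN_1231035. Its probes ILMN_2739965 and ILMN_3103652 were highest there too. On ILMN_3030340, also detected on all 6 arrays, that array read 8.13 and the others 8.08 to 8.51, so this dimmer probe disagrees with them. Across the 22 detected probes, 11 had a range of at least 1, beside 38.5% of all detected probes, and *Cmah*-null replicate 3 was the highest array for 12, beside 36.6%, and the lowest for 3.

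**Figure D4:**
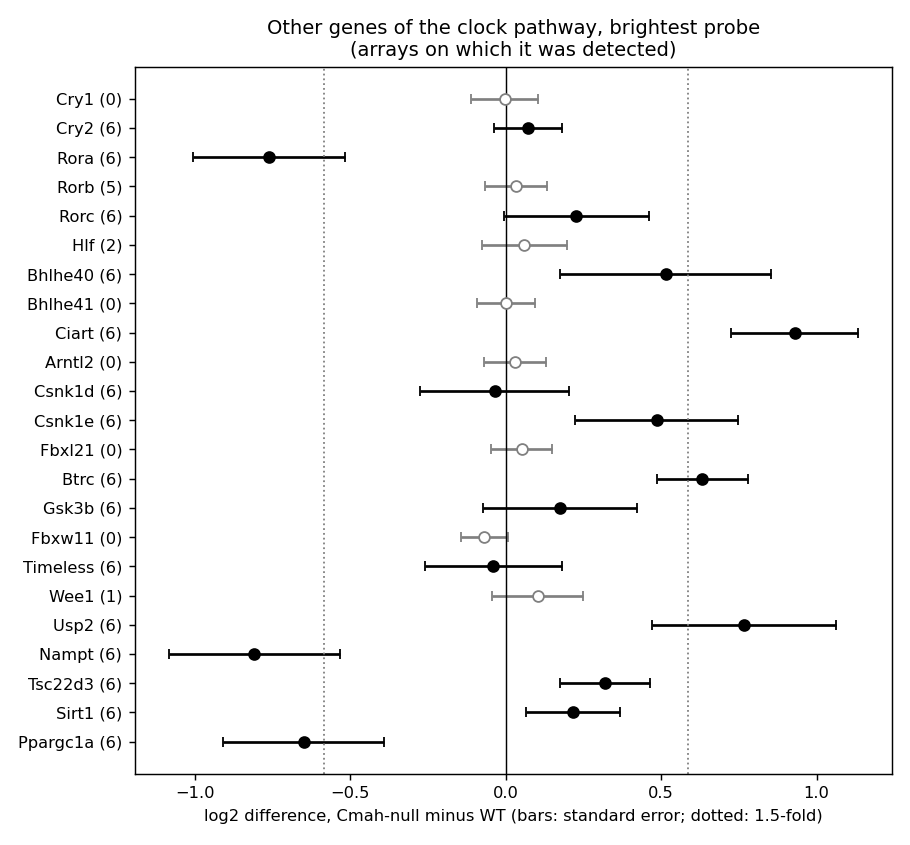
Difference of log2 signal, *Cmah*-null minus WT (horizontal axis), of the brightest probe of 23 other clock pathway genes with its standard error as the bar; open points mark probes not detected on all 6 arrays, with the number of arrays in brackets, and dotted lines mark 1.5-fold. Ciart, Usp2 and Btrc lie above the upper line and Rora, Nampt and Ppargc1a below the lower one.

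The genes nearest to Dbp in their profile over the arrays were not clock genes. Likeness was the root mean square difference of 2 genes' log2 signals over the 6 arrays, each centred on its own mean, among 3917 genes whose brightest probe was detected on all 6 arrays with a range of at least 1. The 5 nearest to Dbp were H2afx (0.070), Tmcc2 (0.071), Dpp9 (0.11), Ubap2 (0.12) and Sdc3 (0.12), and each was highest in *Cmah*-null replicate 3. Bhlhe40, at rank 47, was the nearest of the clock pathway genes, followed by Usp2 at rank 239 and Csnk1e at 496. Ciart stood at rank 1105, Nr1d1 at 1153, Per1 at 1353, Per2 at 1723 and Clock at 3226.

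Genes induced by the signals that also induce Per1 and Per2 differed in part. Of 9 immediate early genes, 7 were detected on all 6 arrays and Nr4a1 on none. Of the 9, 3 (Fos, Fosb and Junb) lay wholly higher in *Cmah*-null samples, beside 9.11% of all probes. Fos and Fosb were higher by the 1.5-fold rule, beside 1.3% of all probes. Fos read 9.71, 10.47 and 10.28 in WT and 11.35, 11.30 and 11.89 in *Cmah*-null samples, a difference of 1.36 (SE 0.25, adjusted p = 0.397 in limma). The log2 of the list's summed signal was 13.66 to 14.46 in WT and 14.29 to 15.37 in *Cmah*-null samples, with overlap. Of 7 glucocorticoid-responsive genes, 6 were found and detected on all 6 arrays. Fkbp5 and Sgk1 lay wholly higher in *Cmah*-null samples, beside 9.11% of all probes. The genotypes overlapped for the brightest probes of Tsc22d3, Mt2, Cdkn1a and Pdk4, and Pdk4 was lower in the *Cmah*-null mean, by -0.66 (SE 0.52). Fkbp5 read 9.49, 8.96 and 9.45 in WT and 10.10, 9.97 and 11.31 in *Cmah*-null samples, a difference of 1.16 (SE 0.38). The log2 of the summed signal of the 6 glucocorticoid-responsive genes was 14.60 to 15.10 in WT and 14.96 to 15.06 in *Cmah*-null samples. The part of these signals in the Per1 and Per2 values was not tested.

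The labelled tissue was checked against its markers. Of 6 genes of cochlear support and stroma 5 were detected on all 6 arrays and Otor on none, and of 5 hair cell genes 2 were. Among neuron markers Nefm and Tubb3 were detected on all 6 arrays, and Nefl and Snap25 on none. Skeletal muscle markers were detected on all arrays, and the log2 of their summed signal was 17.21 to 18.15 in WT and 17.23 to 17.43 in *Cmah*-null samples. The summed signals of bone, fat, blood and marrow, and myelin markers overlapped between genotypes too. They were not even across the WT arrays. For bone the log2 of the sum was 15.82, 15.52 and 12.87 in WT and 13.93 to 14.04 in *Cmah*-null samples. For myelin it was 16.06, 14.83 and 14.45 in WT and 14.77 to 14.91 in *Cmah*-null samples. The brown fat list, given beside Rora, was the one of these tissue lists whose summed signal did not overlap. The clock runs in all of these cell types, and the part of tissue make-up in the clock gene values was not tested.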

How the data were processed

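Total RNA of 3 WT and 3 *Cmah*-null cochlear samples was measured on 6 Illumina arrays. As deposited, the raw table holds bead intensity, linear and neither normalized nor background-subtracted, and beside it the bead error, bead number and detection p value of each probe, which moves in steps of 1 in 798. The log2 values used were made by the authors by quantile normalization, and equalled log2 intensities quantile-normalized anew to within 0.00076. The authors' own fold changes and tests in that table were not used, nor were 12 further per-sample columns.

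Genotypes were compared by limma 3.58.1 (R 4.3.3) with lmFit and eBayes, as a two-sided test without covariates, and p-values were adjusted by Benjamini-Hochberg over all 25697 probes. The limma fit was tested on simulated arrays with known changes added. The number of arrays limits precision. The brightest probe of a gene is the one with the highest mean log2 signal. Promoter sequences came from a RefSeq table on GRCm38.p6. Named were all probes of the 10 genes, other pathway genes that passed the 1.5-fold rule or had a range of at least 1 while detected on all 6 arrays, Cry1 and Cry2, and the 5 genes most like Dbp. The genes and lists were chosen with earlier results of these data known. Alternatives were normalization by neqc or by median scaling, only probes detected on 3 or more arrays, a block for replicate number or for bead set, an ordinary test per probe, eBayes with trend and robust, an average of *Cmah*-null replicates 1 and 2, and each array left out in turn. Matplotlib 3.10.9 (Python 3.11.15) drew the figures.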

Additional observations from a re-analysis of the deposited data

How the results depend on the processing

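Both Per2 probes stayed higher in *Cmah*-null samples in all 14 alternatives, by 1.07 to 1.72 and by 1.04 to 1.67, with adjusted p of 0.0850 to 0.841 and 0.0850 to 0.782. No clock gene probe passed an adjusted p under 0.05 in any alternative, and over all probes 3 did with the bead set as a block and 0 otherwise. Per1, Nr1d1, Dbp, Arntl and Per3 kept their sign in these 14 alternatives, Dbp at 0.013 to 0.89. Median scaling moved the median difference of the probes detected on all 6 arrays from 0.026 to 0.30, and relative to that median Per2 differed by 1.42 and 1.37, Per1 by 0.84 and 0.83, Nr1d1 by 0.80, Dbp by 0.59, Tef by 0.30, Arntl by 0.23, Clock by -0.034, Nr1d2 by -0.18 and Per3 by -0.49 on their detected probes. With median scaling 6 clock gene probes were higher in place of 3, where 9.37% of all probes were. With neqc 1, the dim Tef probe, was lower in place of 0, where 2.72% of all probes were. For the other pathway genes, median scaling gave 8 higher in place of 4 and 0 lower in place of 3. The count of lower probes was also 1 with the replicate block and 0 with the ordinary test per probe. With 1 array left out, 2 to 4 of the pathway's probes were higher, the lowest without WT replicate 3. Between 0 and 2 were lower, with 0 without WT replicate 2 or 3 and 1 without *Cmah*-null replicate 3. Over these 6 fits 0.743% to 2.00% of all probes were higher and 0.926% to 2.04% lower. A range of at least 1 was met by 8 clock gene probes with neqc and with median scaling, where 58.8% and 55.0% of all detected probes met it. The phase contrast differed by -0.078 with neqc, -0.24 with median scaling and -0.14 with the mean of all detected probes. Taking all genes whether detected or not changed nothing, since all were detected.

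Signs turned for these probes. With median scaling, ILMN_2610973 of Clock gave 0.27, ILMN_2600964 of Clock 0.033, ILMN_2589603 of Clock -0.023, Npas2 -0.042 and ILMN_2798993 of Nr1d2 0.12. With 1 array left out, ILMN_2610973 of Clock ranged from -0.44 to 0.29 and Npas2 from -0.062 to 0.16, both turning without *Cmah*-null replicate 3. ILMN_2600964 of Clock ranged from -0.26 to 0.21 and ILMN_2602387 of Nr1d2 from -0.13 to 0.093, both turning without WT replicate 1 or *Cmah*-null replicate 3, and neqc gave the latter -0.00077. The cause was not tested. The second Per1 probe had an unadjusted p of 0.0961 with the ordinary test per probe. The deviations of samples with the same replicate number correlated at 0.034, -0.18 and 0.026, so the numbers were not taken to pair samples. With the replicate block 4 clock gene probes were higher in place of 3, where 1.56% of all probes were. The bead set as a block also gave 4, where 3.33% of all probes were higher. In both the added probe was ILMN_2813484 of Per1. With trend and robust 4 were higher, where 1.47% of all probes were, and the added one was Nr1d1 (unadjusted p 0.0479). With the replicate block the Per2 differences were unchanged at 1.23 and 1.19, with an adjusted p of 0.526.

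Probes detected on few arrays (Npas2, the dimmer probes of Clock, Nr1d2 and Tef) lie near background. The close *Cmah*-null replicates 1 and 2, averaged into 1 sample, left Per2 at 1.31 and 1.26 with an adjusted p of 0.772.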
